A study of Mus musculus with 6 samples.

Results

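The genes described here are 38 that carry glucose into the cell and break it down: glucose transporters, the glycolytic enzymes, lactate dehydrogenases and monocarboxylate transporters, the pentose phosphate enzymes, and the genes through which pyruvate enters mitochondrial oxidation. They were chosen by name from the 17438 genes of the deposited count table, with earlier results of these data known. All 38 were in that table and passed the filter on low counts. The cells were ILC2s, group 2 innate lymphoid cells, which sit in lung and other barrier tissues and release IL-5 and IL-13 when the alarm cytokine IL-33 reaches them. Cells of both genotypes came from mouse lung by sorting and were cultured and given IL-33, and cDNA was made from 10 pg of RNA a sample. The mutant genotype was a targeted Cd48 allele, labelled B6.129S4-Cd48tm1Rsr/EpaulJ (KO1, KO2 and KO3), and the control was WT on the strain labelled CB57BL/6 (WT1, WT2 and WT3). The allele's name gives a 129S4 donor strain. The labels give no age, and do not say whether samples came from separate animals, so the p-values rest on a spread between samples that may be technical in part. The series' design text speaks of duplicates, and 3 samples of each genotype were analysed here.

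Glycolysis splits glucose into pyruvate and yields a little ATP quickly. Lymphocytes that are activated and divide take up more glucose and pass much of the pyruvate on to lactate, which leaves the cell with a proton through monocarboxylate transporters. The pentose phosphate pathway branches off at glucose 6-phosphate, where its oxidative arm makes NADPH and its non-oxidative arm makes or returns ribose phosphates. Pyruvate that is not turned into lactate enters mitochondria through a carrier and is converted to acetyl-CoA by pyruvate dehydrogenase (PDH), which PDH kinases switch off.

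Deposited counts summed to 16135210 to 17600475 in the KO libraries and 14928623 to 27450400 in the WT libraries. Cd48 itself, the check of the labels, was at 4.54, 5.61 and 4.42 CPM (reads scaled by library size) in KO1, KO2 and KO3, against 57.2, 46.5 and 41.7 CPM in WT1, WT2 and WT3. This was a log2 fold change of -3.33 (SE 0.20; edgeR adjusted p 0.00285). WT1 stood apart. Across genes, Pearson's r on the log2 CPM scale was 0.981 to 0.984 among KO libraries, and in WT 0.981 between WT2 and WT3 but 0.912 and 0.909 between WT1 and these. The main results are therefore given with all 6 libraries and without WT1. The 13 ILC2 markers, among them Il5, Gata3 and Il1rl1, were all measured and summed to 13501 to 14276 CPM in KO and 11887 to 15092 CPM in WT.

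Sums of some marker lists of other cell types did not overlap between genotypes. The 5 measured of 8 T cell markers summed to 17.6 to 18.9 CPM in KO and 30.0 to 47.1 CPM in WT, and the 7 of 7 epithelial markers to 10.1 to 23.8 CPM in KO and 30.9 to 72.7 CPM in WT. The 2 of 5 endothelial markers summed to 40.3 to 42.0 CPM in KO and 28.6 to 40.1 CPM in WT, and the 2 of 5 erythroid markers to 4.48 to 6.00 CPM in KO and 3.02 to 4.13 CPM in WT. In each of these lists the genotypes did not overlap, though the endothelial sums only just, with the lowest WT sum, 28.6 CPM, in WT1. The share of other marker sums without overlap was not computed. For single genes tested, 10.8% lay wholly above WT in KO and 8.55% wholly below. Sums overlapped for B cell markers (3 of 6 measured, 25.1 to 30.7 CPM in KO, 26.0 to 46.7 CPM in WT), macrophage markers (7 of 8, 14.0 to 126 CPM in KO, 53.5 to 243 CPM in WT), dendritic cell markers (3 of 5, 51.5 to 57.5 CPM in KO, 57.4 to 65.9 CPM in WT) and eosinophil and mast cell markers (2 of 7, 273 to 276 CPM in KO, 112 to 281 CPM in WT, the lowest in WT1). Markers of NK cells, neutrophils and fibroblasts, each with 1 gene measured, summed to at most 0.308 CPM in KO and 0.666 CPM in WT. Of 5 sex transcripts only Xist was in the count table, and Ddx3y, Eif2s3y, Kdm5d and Uty of the Y chromosome were not. Xist was at 65.3 to 79.8 CPM in KO and 17.2 to 65.6 CPM in WT, the lowest in WT1. The part of other cells in the results below was not tested. In bulk RNA, a change in the mix of cells and a change in RNA per cell cannot be told apart.

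With all 6 libraries no gene of glucose metabolism passed the test. Of 13317 genes tested, 4 (0.0300%) had an adjusted p under 0.05 (edgeR, Benjamini-Hochberg), and 0 of the 38 were among them. At an unadjusted p under 0.05, 5 of the 38 (13.2%) were higher in KO, against 2.94% of all genes, and 1 (2.63%) was lower, against 3.95% of all genes. The 5 were Slc16a3, Tpi1, Pfkl, Pgam1 and Ldha, and the 1 was Ldhb. In 14 of the 38 (36.8%) every KO library lay above every WT library, against 10.8% of all genes tested, and in 3 (7.89%) every KO library lay below, against 8.55%. The median log2 fold change was 0.15 over the 38 genes and -0.00 over all genes, and 28 of the 38 were above 0. This list and the gene lists below were chosen with earlier results of these data known. Shares set beside those of all genes, here and below, are therefore descriptions and no test of a list.

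Without WT1, 4 of the 38 rose in KO and 0 fell: Slc16a3, Pfkl, Tpi1 and Pgam1. Of 13643 genes tested in that fit, 159 (1.17%) were called higher and 89 (0.652%) lower, and the 4 made up 10.5% of the 38. At an unadjusted p under 0.05, 11 of the 38 (28.9%) were higher, against 8.07% of all genes, and 2 (5.26%), Ldhb and Taldo1, were lower, against 5.60%. The median log2 fold change over the 38 genes was 0.08, and that over all genes was 0.00. On all 6 libraries, limma-voom with sample quality weights weighted WT1 at 0.0919 and each other library at 1.08 to 2.36. That fit called 3 of the 38 higher, Slc16a3, Tpi1 and Pfkl, where it called 0.421% of all genes higher. DESeq2 on all 6 libraries called 1 of the 38 higher, Slc16a3, and also 0.421% of all genes.

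**Figure D1:**
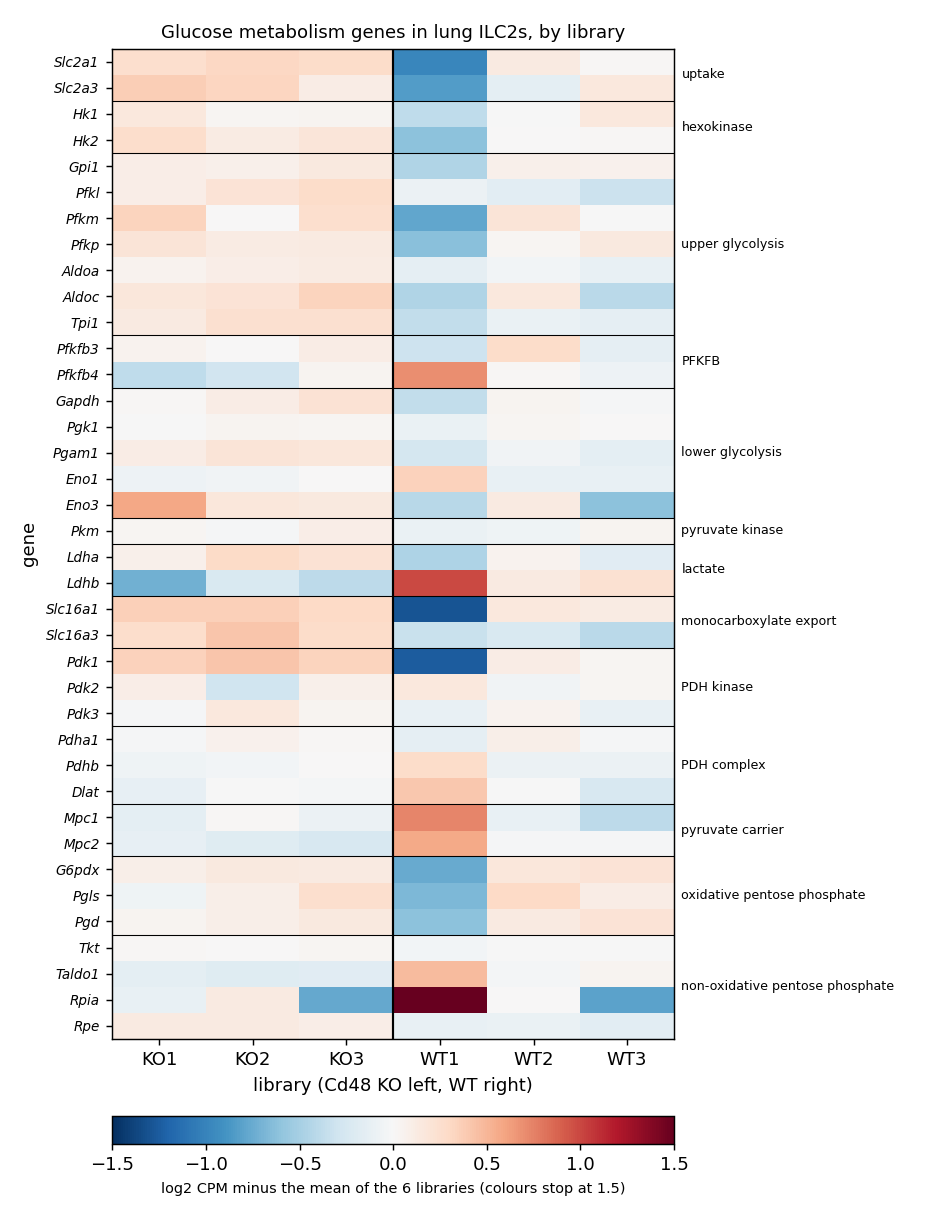
Each of the 38 genes (rows, grouped by role) in each of the 6 libraries (columns, KO before WT), coloured by its log2 CPM minus the mean of the 6 libraries, with colours stopping at 1.5, which Rpia in WT1 exceeds. The WT1 column departs from the other WT columns in both directions, with Slc16a1 and Pdk1 low and Mpc1 and Rpia high, while Slc16a3 is high in the 3 KO columns and low in the 3 WT columns.

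The genes differed greatly in level. Per kilobase of transcript, averaged over the 6 libraries, 5 genes stood above 1000 CPM: Gapdh (2114), Aldoa (2065), Eno1 (2000), Ldha (1850) and Pkm (1746). These 5 held 68.6% to 71.8% of the counts of the 38 in each library. At the other end 9 genes were below 10 CPM per kilobase, the lowest being Eno3 (2.01), Rpia (2.18) and Pfkfb4 (2.30). All 38 together took 2.58%, 2.69% and 2.75% of the counts in KO1, KO2 and KO3, against 2.25%, 2.51% and 2.47% in WT1, WT2 and WT3. The KO shares lay above the WT shares, KO1 and WT2 being 2.58% and 2.51%.

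Glucose enters through facilitative transporters. Slc2a1, which encodes GLUT1, the main transporter of activated lymphocytes, was at 188, 195 and 190 CPM in KO1, KO2 and KO3, against 79.9, 173 and 159 CPM in WT1, WT2 and WT3. The genotypes did not overlap, but WT1 was far below the other WT libraries. On the log2 scale KO exceeded WT by 0.47 (SE 0.27) with all libraries and by 0.20 (SE 0.07) without WT1, with adjusted p of 0.690 and 0.180 (edgeR). Slc2a3, which encodes the high-affinity GLUT3, was at 26.8 to 32.1 CPM in KO and 13.9 to 27.7 CPM in WT, with overlap.

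Hexokinase traps glucose as glucose 6-phosphate. Hk1, the more abundant isoenzyme, was at 541, 495 and 501 CPM in KO, against 374, 484 and 543 CPM in WT, and the genotypes overlapped. Hk2, the isoenzyme induced by growth signals and hypoxia, was at 155, 141 and 147 CPM in KO, against 84.6, 130 and 131 CPM in WT. All KO values of Hk2 were above all WT values. Its difference on the log2 scale was 0.35 (SE 0.18) with all libraries and 0.18 (SE 0.07) without WT1, with adjusted p of 0.690 and 0.273 (edgeR).

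In upper glycolysis, Pfkl and Tpi1 rose without WT1, and the other 5 genes did not pass. Phosphofructokinase commits sugar to glycolysis, and Pfkl encodes its liver-type subunit. Pfkl (chromosome 10, 77986947 to 78010083, minus strand, GRCm38) was at 303, 327 and 344 CPM in KO, against 266, 254 and 226 CPM in WT. The lowest KO library was above the highest WT library, and WT1 lay with the WT libraries. The group means were 325 ± 20.3 CPM in KO and 249 ± 20.8 CPM in WT (SD, n = 3 each). Without WT1 the log2 fold change was 0.44 (SE 0.07), a 1.36-fold difference (edgeR adjusted p 0.0109). With all libraries it was 0.37 (SE 0.12; edgeR adjusted p 0.690).

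Tpi1 (chromosome 6, 124810586 to 124814296, minus strand) encodes triosephosphate isomerase, which interconverts the 3-carbon products of aldolase. It was at 713, 766 and 766 CPM in KO, against 501, 606 and 589 CPM in WT. All KO libraries were above all WT libraries, with WT1 the lowest. The group means were 748 ± 30.8 CPM in KO and 565 ± 56.5 CPM in WT (SD, n = 3 each). The log2 fold change was 0.32 (SE 0.06) without WT1, a 1.25-fold difference, and 0.39 (SE 0.11) with all libraries, with adjusted p of 0.0109 and 0.690 (edgeR). Exons of Tpi1 overlap those of Spsb2 on the opposite strand, and the sources used here do not say whether counting used strand.

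The other genes of this stretch did not pass in either fit. Aldoa, the main aldolase here, was at 3235, 3339 and 3383 CPM in KO, against 2846, 3029 and 2888 CPM in WT. The genotypes did not overlap, but the difference was small, with a log2 fold change of 0.16 (SE 0.05) without WT1 and an adjusted p of 0.105 (edgeR). Aldoc, the brain-type aldolase, was at 18.3 to 20.6 CPM in KO and 11.9 to 18.2 CPM in WT. Its genotypes just failed to overlap, and its log2 fold change was 0.43 (SE 0.20) with all libraries and 0.35 (SE 0.17) without WT1, about as large as that of Tpi1 but with adjusted p of 0.690 and 0.410 (edgeR). Gpi1, which turns glucose 6-phosphate into fructose 6-phosphate, was at 607 to 638 CPM in KO and 421 to 609 CPM in WT. The platelet-type subunit gene Pfkp was at 414 to 436 CPM in KO and 246 to 421 CPM in WT. The muscle-type Pfkm was at 17.8 to 22.4 CPM in KO and 10.3 to 20.3 CPM in WT. Gpi1, Pfkp and Pfkm overlapped between genotypes and were lowest in WT1. Pitrm1, whose exons overlap Pfkp on the opposite strand, held counts equal to 82.6% of those of Pfkp, so Pfkp is uncertain.

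The PFKFB enzymes set the level of fructose 2,6-bisphosphate, an activator of phosphofructokinase. Pfkfb3 was at 14.2, 13.7 and 14.8 CPM in KO, against 11, 16.5 and 12.4 CPM in WT. Pfkfb4 was at 5.95 to 7.98 CPM in KO and 7.34 to 12.6 CPM in WT, the highest in WT1. Both overlapped between genotypes and neither passed in either fit.

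**Figure D2:**
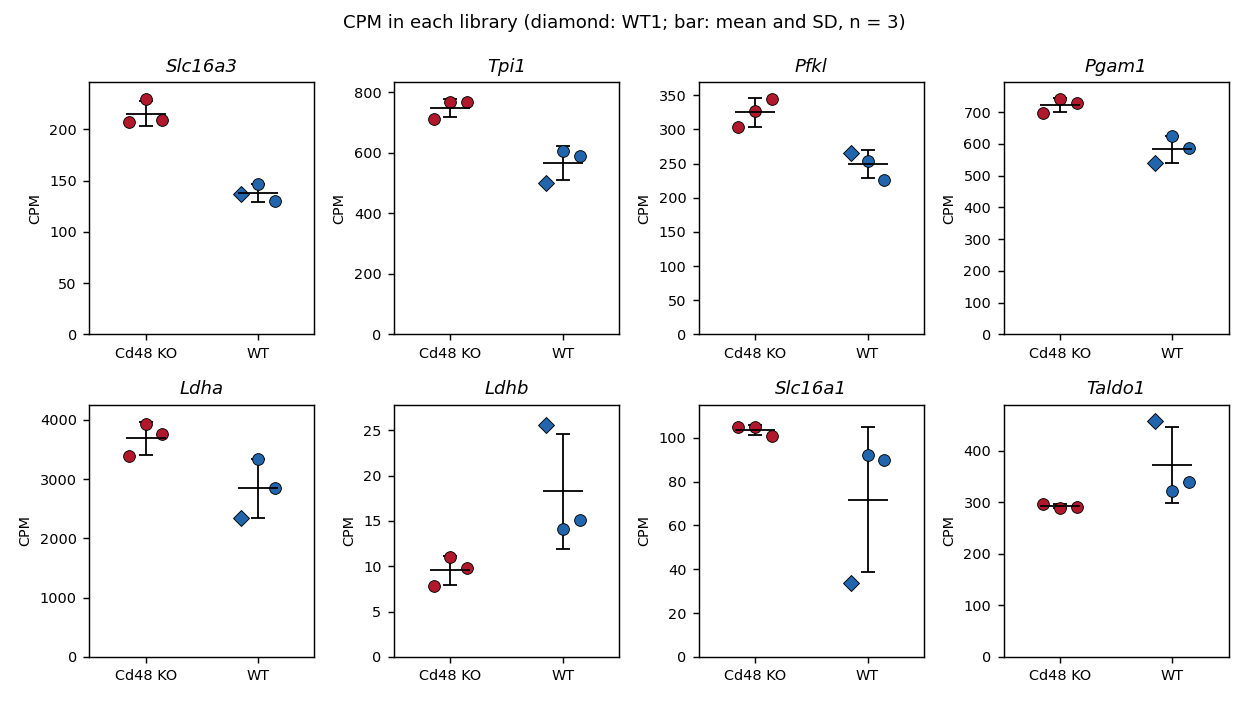
CPM in each library for 8 of the genes with an unadjusted p under 0.05 in either fit (edgeR). Vertical axes start at 0, KO is left of WT, WT1 is a diamond, and bars give the mean and SD (n = 3). Slc2a1, Hk2, Aldoa, Pdk1 and Rpe also met this threshold and are not drawn. In Slc16a3, Tpi1, Pfkl and Pgam1 every KO point lies above every WT point. WT1 lies between the other WT libraries in Slc16a3 and just above them in Pfkl. It is below them in Tpi1 (501), Pgam1 (539) and Ldha (2339), and far from them in Slc16a1 (33.6), Ldhb (25.6) and Taldo1 (457).

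In lower glycolysis, which oxidises triose phosphate and makes ATP, Pgam1 rose without WT1 and the other 4 genes did not pass. Pgam1 (chromosome 19, 41911923 to 41918660, plus strand) encodes phosphoglycerate mutase and was at 698, 743 and 728 CPM in KO, against 539, 625 and 586 CPM in WT. All KO libraries were above all WT libraries. The group means were 723 ± 23.1 CPM in KO and 583 ± 43.1 CPM in WT (SD, n = 3 each). The log2 fold change was 0.25 (SE 0.05) without WT1, a 1.19-fold difference, and 0.30 (SE 0.10) with all libraries, with adjusted p of 0.0359 and 0.690 (edgeR).

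At the neighbouring steps no gene passed the test. Gapdh was at 3018, 3211 and 3458 CPM in KO, against 2306, 3077 and 2940 CPM in WT, and KO1 lay within the WT range. Pgk1, the first enzyme of the pathway to make ATP, was at 815 to 841 CPM in KO and 764 to 831 CPM in WT, with a log2 fold change of 0.00 (SE 0.05) without WT1. Eno1 was at 3824 to 4038 CPM in KO, against 5113 CPM in WT1 and 3728 and 3724 CPM in WT2 and WT3. The log2 fold change of Eno1 was -0.11 with all libraries and 0.07 without WT1, so that WT1 turned its direction. Eno3, the muscle enolase, was at 3.34 to 4.54 CPM in KO and 1.98 to 3.33 CPM in WT, from 33 to 74 counts a library. Pkm, pyruvate kinase, was at 4337, 4192 and 4562 CPM in KO, against 3954, 4061 and 4369 CPM in WT. It overlapped between genotypes, with a log2 fold change of 0.05 (SE 0.05) without WT1. Many processed copies of Gapdh exist, and 84 similar genes in the table held counts equal to 9.65% of those of Gapdh, so how its reads were divided is uncertain.

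The lactate dehydrogenase genes differed from WT in opposite directions, and neither passed the adjusted threshold. Ldha encodes the subunit that favours turning pyruvate into lactate. It was at 3388, 3933 and 3754 CPM in KO, against 2339, 3335 and 2851 CPM in WT, so that KO1 lay only just above WT2. For Ldha the log2 fold change was 0.37 (SE 0.15) with all libraries and 0.25 (SE 0.09) without WT1, with adjusted p of 0.690 and 0.252 (edgeR). Ldhb encodes the heart-type subunit, which favours the return of lactate to pyruvate. It was at 7.79, 11 and 9.80 CPM in KO, against 25.6, 14.1 and 15.1 CPM in WT, with no overlap and WT1 the highest. For Ldhb it was -0.95 (SE 0.29) with all libraries and -0.62 (SE 0.18) without WT1, with adjusted p of 0.690 and 0.130 (edgeR). Per kilobase, Ldha was 321, 263 and 283 times Ldhb in KO1, KO2 and KO3, against 67.5, 174 and 140 times in WT1, WT2 and WT3.

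Lactate leaves cells mainly through MCT1 and MCT4, and the transcript of MCT4 had the lowest p of the 38 genes in both fits. Slc16a3 (chromosome 11, 120948480 to 120960868, plus strand) encodes MCT4, the exporter typical of strongly glycolytic cells. It was at 207, 229 and 209 CPM in KO, against 137, 147 and 130 CPM in WT. All KO libraries were above all WT libraries, and WT1 lay between the other WT libraries. The group means were 215 ± 12.5 CPM in KO and 138 ± 8.58 CPM in WT (SD, n = 3 each). With all libraries the log2 fold change was 0.63 (SE 0.11), with an edgeR p of 0.000716 unadjusted and 0.544 adjusted. Without WT1 it was 0.64 (SE 0.08), a 1.56-fold difference (edgeR adjusted p 0.00138). On all 6 libraries the adjusted p was 7.22e-05 in DESeq2 and 0.00968 in limma-voom with sample quality weights.

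Slc16a1, which encodes MCT1, was at 105, 105 and 101 CPM in KO, against 33.6, 92.1 and 89.7 CPM in WT. The genotypes did not overlap, and WT1 was the library with the lowest value by far. KO exceeded WT by 0.52 (SE 0.35) on the log2 scale with all libraries and 0.19 (SE 0.07) without WT1, with adjusted p of 0.693 and 0.277 (edgeR).

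**Figure D3:**
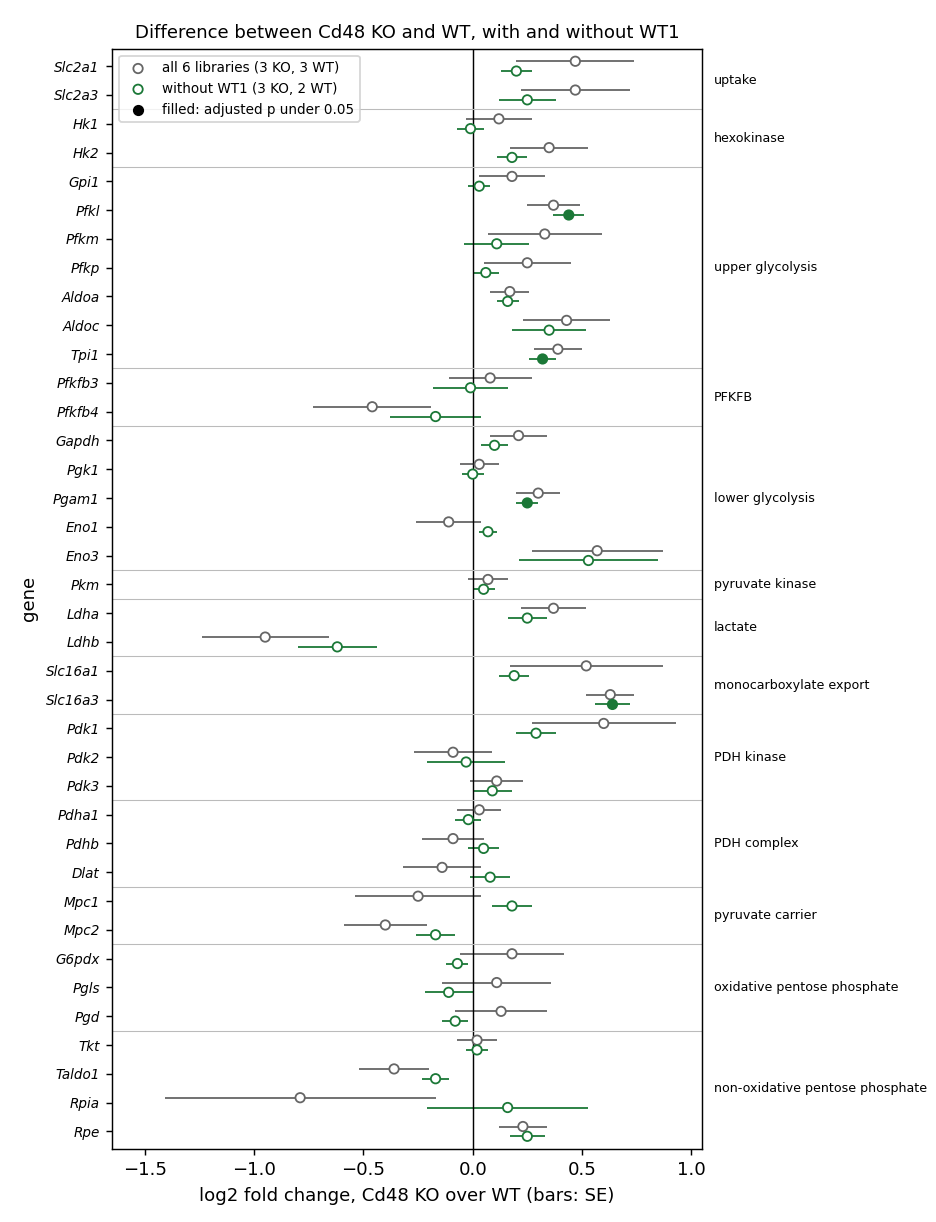
Log2 fold change of Cd48 KO over WT for each of the 38 genes (points, with the SE as bars), grouped by role, with all 6 libraries in grey and without WT1 in green; filled points have an adjusted p under 0.05 in edgeR. The 4 filled points are Pfkl, Tpi1, Pgam1 and Slc16a3 without WT1, and the bars of most genes are shorter in that fit.

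Not every call without WT1 was made again when a further library was left out, although the differences stayed of like size. Slc16a3 was called in each of the 5 fits, with log2 fold changes of 0.54 to 0.73 and adjusted p of 0.00230 to 0.0194 (edgeR). Pfkl was called without WT2 and without KO1 (adjusted p 0.0166 and 0.00732) and not without WT3, KO2 or KO3 (0.0916, 0.0592 and 0.0695). Tpi1 and Pgam1 were called only without KO1 (adjusted p 0.00635 and 0.0195), and reached 0.0574 to 0.0783 and 0.0793 to 0.229 in the other 4 fits. Log2 fold changes in these fits were 0.34 to 0.52 for Pfkl, 0.29 to 0.36 for Tpi1 and 0.20 to 0.30 for Pgam1. Without KO1, Aldoa and Ldha were called as well. The share of all tested genes called higher was 1.66%, 0.251% and 0.223% with KO1, KO2 or KO3 left out, and 0.342% and 0.415% with WT2 or WT3 left out.

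The windows around the start sites of the 4 called genes are printed because these genes share a branch of metabolism that hypoxia-inducible factor (HIF) and MYC are known to regulate. Each runs from 250 bases before to 50 bases after the RefSeq start (GRCm38.p6), on the gene's strand. These starts differ from those of the gene spans given above, which are from GENCODE. The Slc16a3 and Pfkl windows lie inside those spans, and the Pgam1 window ends just before its span. Capitals mark ACGTG and GCGTG, the cores of HIF response elements, on either strand. A match is a description and shows no binding.
Slc16a3 (chr11:120948817-120949116, plus strand): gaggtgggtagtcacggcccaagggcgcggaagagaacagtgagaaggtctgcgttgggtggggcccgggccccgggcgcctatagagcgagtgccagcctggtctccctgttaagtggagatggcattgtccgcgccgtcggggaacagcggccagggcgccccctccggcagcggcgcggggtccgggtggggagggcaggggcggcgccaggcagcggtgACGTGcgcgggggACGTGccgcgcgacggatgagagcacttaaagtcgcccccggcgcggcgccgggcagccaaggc
Pfkl (chr10:78009758-78010057, minus strand): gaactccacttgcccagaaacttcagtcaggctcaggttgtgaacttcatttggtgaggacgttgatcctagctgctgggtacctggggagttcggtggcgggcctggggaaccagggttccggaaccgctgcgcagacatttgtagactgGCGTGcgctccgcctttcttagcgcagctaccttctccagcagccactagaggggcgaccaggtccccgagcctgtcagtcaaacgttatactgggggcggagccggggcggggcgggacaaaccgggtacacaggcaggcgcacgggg
Tpi1 (chr6:124814109-124814408, minus strand): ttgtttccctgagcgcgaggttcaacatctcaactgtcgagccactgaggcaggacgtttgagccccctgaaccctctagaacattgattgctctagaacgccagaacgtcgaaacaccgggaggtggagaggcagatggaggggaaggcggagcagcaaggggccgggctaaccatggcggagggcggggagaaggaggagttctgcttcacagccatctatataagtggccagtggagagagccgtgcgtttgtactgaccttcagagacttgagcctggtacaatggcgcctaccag
Pgam1 (chr19:41911621-41911920, plus strand): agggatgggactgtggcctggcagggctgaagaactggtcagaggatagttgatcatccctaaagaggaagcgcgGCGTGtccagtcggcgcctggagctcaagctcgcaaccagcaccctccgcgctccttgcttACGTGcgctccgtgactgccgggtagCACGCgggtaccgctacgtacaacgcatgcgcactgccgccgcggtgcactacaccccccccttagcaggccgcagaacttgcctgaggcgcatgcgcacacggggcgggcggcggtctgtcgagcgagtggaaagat

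The Slc16a3 window held 2 copies of ACGTG towards its 3′ end. The Pgam1 window held 1 ACGTG and 2 GCGTG, of which 1 lies on the opposite strand, and the Pfkl window 1 GCGTG. The Tpi1 window held neither motif. Of the 38 genes 37 matched a RefSeq window by symbol, with 53 windows in all. ACGTG, on either strand, was in 39.6% of these 53 windows, against 26.0% of the windows of tested genes and 19.6% of all 32851 windows. GCGTG was in 60.4%, against 51.0% of tested genes' windows and 32.4% of all. The palindrome CACGTG, which MYC and related factors bind and which contains ACGTG, was in 9.43%, against 10.1% of tested genes' windows and 7.15% of all.

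PDH kinases phosphorylate and inhibit PDH. Pdk1, a HIF target, was at 52.7, 55.2 and 52.3 CPM in KO, against 17.5, 44.7 and 42.4 CPM in WT. The genotypes did not overlap, with WT1 far below the rest. Pdk1 had a log2 fold change of 0.60 (SE 0.33) with all libraries and 0.29 (SE 0.09) without WT1, with adjusted p of 0.690 and 0.163 (edgeR). Pdk3, the most abundant PDH kinase per kilobase, was at 64.7, 73.3 and 67.6 CPM in KO, against 60.5, 67.9 and 60.6 CPM in WT. Pdk2 was at 9.32 to 12.3 CPM in KO and 11.1 to 12.8 CPM in WT. Pdk2 and Pdk3 overlapped between genotypes.

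The PDH complex itself differed little. Pdhb, the E1 beta subunit gene, was at 153, 155 and 161 CPM in KO, against 194, 151 and 150 CPM in WT. Pdha1, the E1 alpha subunit gene, was at 230 to 243 CPM in KO and 212 to 247 CPM in WT, and Dlat, the E2 subunit gene, at 97.4 to 105 CPM in KO and 89.5 to 140 CPM in WT. Their log2 fold changes without WT1 were 0.05, -0.02 and 0.08, each with an SE of 0.06 to 0.09. All 3 overlapped between genotypes and changed sign when WT1 was left out.

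The mitochondrial pyruvate carrier is built of MPC1 and MPC2. Mpc1 was at 252, 283 and 263 CPM in KO, against 464, 258 and 212 CPM in WT. It overlapped, and its log2 fold change was -0.25 (SE 0.29) with all libraries and 0.18 (SE 0.09) without WT1. Mpc2 was at 41.7 to 45.2 CPM in KO and 48.5 to 73.2 CPM in WT, with no overlap. KO minus WT was -0.40 (SE 0.19) on the log2 scale with all libraries and -0.17 (SE 0.09) without WT1, with adjusted p of 0.690 and 0.492 (edgeR). Mpc2 lies 6.2 Mb from Cd48 on chromosome 1 (Cd48 at 171682009 to 171705258), and whether donor strain sequence remains there was not tested.

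None of the 3 oxidative pentose phosphate genes passed in either fit. G6pdx encodes glucose 6-phosphate dehydrogenase, the entry step and an NADPH source. It was at 1039, 1080 and 1070 CPM in KO, against 576, 1096 and 1126 CPM in WT. WT1 was the low library, and the other WT libraries were slightly above the KO range. Pgd, which makes NADPH in the last oxidative step, was at 357 to 384 CPM in KO, against 227 CPM in WT1 and 382 and 400 CPM in WT2 and WT3. Pgls, the lactonase gene, was at 52.8 to 65.7 CPM in KO, against 34.7 CPM in WT1 and 67.9 and 59.8 CPM in WT2 and WT3. Their log2 fold changes were 0.18, 0.13 and 0.11 with all libraries and -0.07, -0.08 and -0.11 without WT1, in the order G6pdx, Pgd and Pgls. Leaving out WT1 turned the direction of all 3.

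In the non-oxidative arm, Taldo1, transaldolase, was the most abundant gene per kilobase. It was at 297, 289 and 291 CPM in KO, against 457, 321 and 338 CPM in WT, with no overlap. Its log2 fold change was -0.36 (SE 0.16) with all libraries and -0.17 (SE 0.06) without WT1, with adjusted p of 0.690 and 0.170 (edgeR). Rpe, the ribulose phosphate epimerase gene, was at 70.4, 70.0 and 68.3 CPM in KO, against 59.2, 59.8 and 57.4 CPM in WT. The values of Rpe were close to one another within each genotype, and the genotypes did not overlap. Without WT1 Rpe had a log2 fold change of 0.25 (SE 0.08; edgeR adjusted p 0.196). Rpe is also on chromosome 1, 105 Mb from Cd48, and overlaps Kansl1l on the opposite strand. Tkt, transketolase, was at 451 to 462 CPM in KO and 440 to 449 CPM in WT, a log2 fold change of 0.02 (SE 0.05) without WT1. Rpia, the ribose phosphate isomerase gene, was at 1.98 to 3.70 CPM in KO, against 9.81 CPM in WT1 and 3.40 and 1.94 CPM in WT2 and WT3.

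Ratios within a library compared isoenzymes and branch points without the library's scale, in 13 pairs. In 4 pairs the log2 ratios did not overlap between genotypes: Ldhb over Ldha, Hk2 over Hk1, Pdk1 over Pdk2 and Pdk1 over Pdk3. The share of other gene pairs without overlap was not computed. Among single genes tested, 10.8% lay wholly above WT in KO and 8.55% wholly below. The Pdk1 pairs are not separate results, as both hold Pdk1, at 17.5 CPM in WT1 against 44.7 and 42.4 CPM in WT2 and WT3. Each had an exact two-sided permutation p of 0.1, the smallest that 3 against 3 libraries allow, and 0.325 adjusted over the 13 pairs. Log2 of Ldhb over Ldha averaged -8.60 ± 0.15 in KO and -7.32 ± 0.72 in WT (SD, n = 3 each), a difference of -1.29, and -0.88 without WT1. Log2 of Hk2 over Hk1 averaged -1.79 ± 0.02 in KO and -2.03 ± 0.13 in WT, a difference of 0.24. For Pdk1 the differences were 0.82 against Pdk2 and 0.61 against Pdk3, and 0.33 and 0.20 without WT1. The ratio of Slc16a3 to Slc16a1 overlapped between genotypes. On the log2 scale it was 0.97, 1.12 and 1.06 in KO1, KO2 and KO3, against 2.03, 0.67 and 0.53 in WT1, WT2 and WT3, so that WT1 lay above and the other WT libraries below the KO range. The ratio of G6pdx to Gpi1, enzymes that compete for glucose 6-phosphate, was 0.77 ± 0.05 in KO and 0.73 ± 0.24 in WT (log2, SD, n = 3 each) and overlapped.

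WT1 differed from WT2 and WT3 in both directions among the 38 genes. Its log2 difference from their mean ran from -1.44 (Slc16a1) to 1.92 (Rpia), with a median of -0.17, and exceeded 0.5 in size in 17 genes (44.7%), against 51.1% of all tested genes. WT1 was the lowest of the 6 libraries in 24 of the 38 (63.2%), against 40.7% of all tested genes, and the highest in 10 (26.3%), against 35.4%. Over all tested genes the trend of this difference declined with transcript length above 1000 bases. Among the 38, the long transcripts Slc16a1, Pdk1 and Slc2a1 were low in WT1, the short Mpc1, Mpc2 and Ldhb were high, and Pgls, short as well, was low. The long Pfkfb4 and Dlat were high in WT1, at 0.72 and 0.53. Of the called genes, Slc16a3 and Pfkl have long transcripts (4335 and 3730 bases) and were at -0.01 and 0.15. The shorter Tpi1 and Pgam1 (1607 and 1775 bases) were at -0.25 and -0.17. With a length trend in the offsets and without WT1, the 4 called genes were called again, with adjusted p of 0.00385 to 0.0205 (edgeR), together with Aldoa, where 1.04% of all tested genes were called higher. With the length trend on all 6 libraries, 0 of the 38 were called, and 4 of all genes. The log2 fold changes of Slc16a3, Pfkl, Tpi1 and Pgam1 were then 0.49, 0.27, 0.47 and 0.37 (edgeR adjusted p 0.572 to 0.636). Without the trend they were 0.63, 0.37, 0.39 and 0.30. The unadjusted p of Pfkl with the trend was 0.0893 (edgeR).

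**Figure D4:**
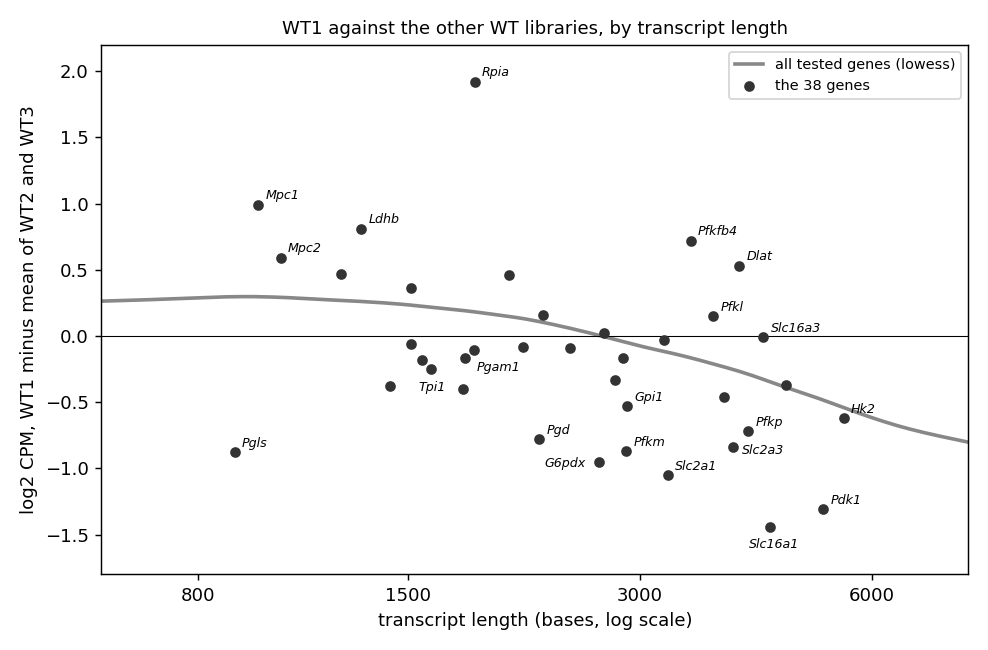
Log2 CPM of WT1 minus the mean of WT2 and WT3 (vertical axis) against transcript length in bases (horizontal log axis) for the 38 genes (points), with the lowess trend of all tested genes (line). The trend declines with length above 1000 bases. Slc16a3 and Pfkl lie near 0 and above the line, and Rpia (1.92) and Slc16a1 (-1.44) are the extremes.

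Other genes of glucose metabolism did not pass. Of 45 further genes of glycolysis, glycogen, glycerol and pentose phosphate metabolism, 41 were tested, and 0 passed with all libraries or without WT1 (edgeR, adjusted p). At an unadjusted p under 0.05 the counts were 0 higher and 0 lower with all libraries, and 5 higher and 2 lower without WT1, where the shares of all genes were 8.07% higher and 5.60% lower. Their median log2 fold change was 0.08 with all libraries and 0.06 without WT1. Bsg, which encodes the chaperone that brings MCT1 and MCT4 to the membrane, was at 434 ± 29.7 CPM in KO and 443 ± 44.6 CPM in WT (SD, n = 3 each). Of 17 genes of the tricarboxylic acid cycle 0 passed in either fit (edgeR), 0 had an unadjusted p under 0.05 with all libraries, and 2 higher and 0 lower did so without WT1, against the same shares of all genes. Their median was 0.05 with all libraries and 0.01 without WT1.

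Genes for known regulators of glycolysis were examined as well. Of 26 tested genes for HIF and MYC factors and for HIF targets outside glycolysis, 0 passed with all libraries, where 3 higher and 1 lower had an unadjusted p under 0.05 (edgeR). The shares of all genes at that threshold were 2.94% and 3.95%. Without WT1, 5 were called higher and 1 lower, where 1.17% of all genes were called higher and 0.652% lower. Whether these calls hold with a further library left out was not tested. Hif1a, the HIF-1 alpha subunit gene, was at 1511, 1439 and 1485 CPM in KO, against 785, 1129 and 1242 CPM in WT, (log2 fold change 0.32, adjusted p 0.0108, edgeR, without WT1). Epas1, which encodes HIF-2 alpha, was at 68.8, 68.3 and 74.1 CPM in KO, against 36.6, 46.6 and 45.0 CPM in WT (0.62, adjusted p 0.00479, edgeR, without WT1). Neither overlapped between genotypes. Egln3, an oxygen sensor that HIF induces, was at 12.2, 13.9 and 8.32 CPM in KO, against 2.06, 3.66 and 4.86 CPM in WT (1.41, adjusted p 0.0151, edgeR, without WT1). Bnip3 (0.67) and Tfrc (0.41) also rose and Hmox1 fell by 0.31 on the log2 scale, all without WT1. With all libraries their log2 fold changes were 0.24, 0.74 and -0.03, in the order Bnip3, Tfrc and Hmox1, and those of Hif1a, Epas1 and Egln3 were 0.48, 0.71 and 1.68. Bnip3 was at 87.2 to 107 CPM in KO, against 116, 62.7 and 55.6 CPM in WT1, WT2 and WT3, so that WT1 lay above the KO range. The HIF targets Adm, Ankrd37, Bnip3l, Car9, Ddit4, Higd1a, Kdm3a, Mxi1, Ndrg1, P4ha1, P4ha2 and Vegfa did not pass in either fit. P4ha1 came closest, at 75.9, 72.7 and 71.9 CPM in KO, against 27.9, 58.8 and 57.2 CPM in WT, with no overlap. Its log2 fold change was 0.61 (SE 0.27) with all libraries and 0.34 (SE 0.08) without WT1, with adjusted p of 0.690 and 0.0628 (edgeR). Mxi1 went the other way, at -0.32 without WT1 (edgeR adjusted p 0.580). Myc was at 99.4 ± 16.7 CPM in KO and 116 ± 25.9 CPM in WT (SD, n = 3 each).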

How the data were processed

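RNA was sequenced from 3 Cd48 KO and 3 WT ILC2 samples. The submitters' processing notes name the mm10 build, STAR 2.7.8, Partek 10.0 and DESeq2. How reads were counted, on which annotation and with which strand setting is not given in the sources used here. Values deposited by the authors are expected counts per gene: 60.2% of nonzero values were whole within 0.001, and the lowest gene total was 10. They were rounded to whole numbers.

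The 38 genes and all gene lists were chosen with earlier results of these data known. Gene models and lengths came from GENCODE M21 (17022 of 17438 symbols matched), and promoter windows from RefSeq (GRCm38.p6). Counts were scaled by TMM, filtered with filterByExpr (minimum count 10) and tested with edgeR 4.0.16 (R 4.3.3; robust quasi-likelihood test, Benjamini-Hochberg over all genes, threshold 0.05). CPM are TMM-scaled, and ratios and shifts used a prior count of 0.5. The SE given with edgeR fits was derived as the absolute log2 fold change divided by the square root of the test's F statistic. Values in every library are given for genes with an unadjusted p under 0.05 in the fit of all 6 libraries or without WT1, and for the most abundant gene of each role per kilobase. Eno1, Pgd, Pgls and Rpia, whose WT1 value stands apart, and list genes given by library were named after their values were seen. DESeq2 1.42.0, limma 3.58.1 (voom with sample quality weights), other size factors and filters, a replicate block, a length trend (lowess, span 0.3) and each library left out were alternatives. Further libraries left out of the fit without WT1, and DESeq2 and the length trend there alone, were added after seeing the data.

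No replicate pair agreed within sampling noise (chi-square per gene 5.52 to 149). On simulated counts with all 6 libraries (13000 genes), 0%, 23.9% and 93.9% of genes changed 1.5-, 2- and 4-fold were recovered with 4 false calls. For the fit without WT1 (13414 genes), 64.2%, 100% and 100% were recovered with 13 false calls. Simulated counts had the same dispersion per gene in every library, and no simulated library stood apart as WT1 did. Recovery and false calls in the real fit of all 6 libraries may therefore differ. Similar transcripts were found with blastn (at least 90% identity over 300 bases).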

Additional observations from a re-analysis of the deposited data

How the results depend on the processing

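Replicates varied more with WT1 in the fit (biological coefficient of variation 0.258) than without it (0.109). Calls over all genes numbered 4 with all libraries, 108 with DESeq2, 100 with limma-voom and sample quality weights, and 0 to 248 when 1 library was left out (0 without KO1, with 662 at an unadjusted p under 0.05, 0 without KO3, with 335, and 248 without WT1). Without WT1 and with the length trend there were 239. Same-numbered samples did not deviate alike from their group means (r of -0.05, -0.04 and -0.01). With 3 samples a group and WT1 apart, these values cannot exclude a pairing. The fit with the replicate number as a block called 0 genes (776 at an unadjusted p under 0.05). The count of the 38 called higher was 0 with all libraries, 1 with DESeq2, 3 with limma-voom, 0 to 4 when 1 library was left out and 5 without WT1 with the length trend; 0 were called lower in every alternative run. At an unadjusted p under 0.05, 5 were higher with all libraries, 9 with limma-voom, 2 to 11 when 1 library was left out and 13 without WT1 with the length trend. The count lower was 1 with all libraries, 2 with limma-voom, 0 to 2 when 1 library was left out and 2 without WT1 with the length trend. Counts at that threshold moved over all genes too, both directions together. They were 918 of 13317 with all libraries, 1930 of 13317 with limma-voom and 335 to 1865 when 1 library was left out. Without WT1 with the length trend they were 1914 of 13643. Starting from the 5 libraries without WT1 (248 calls, 4 of the 38), a further library left out gave 65 to 517 calls and 1 to 6 of the 38, and DESeq2 gave 412 calls. Non-overlapping pair ratios numbered 4 with all libraries and 4 to 9 when 1 was left out.

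No gene of the 38 that was called in any fit changed direction in any alternative run. The log2 fold changes that changed sign belonged to genes called in none. Leaving out 1 library gave ranges across 0 for Eno1 (-0.19 to 0.07, with 0.05 in limma-voom and 0.08 without WT1 with the length trend), Pdha1 (-0.02 to 0.08, with -0.02 in limma-voom and -0.03 without WT1 with the length trend), Pdhb (-0.16 to 0.05, with 0.04 in limma-voom and 0.07 without WT1 with the length trend), Dlat (-0.28 to 0.08, with 0.05 in limma-voom and 0.05 without WT1 with the length trend) and Mpc1 (-0.46 to 0.18, with 0.14 in limma-voom and 0.22 without WT1 with the length trend). It did so too for G6pdx (-0.07 to 0.33, with -0.03 in limma-voom and -0.08 without WT1 with the length trend), Pgls (-0.11 to 0.31, with -0.10 in limma-voom and -0.07 without WT1 with the length trend), Pgd (-0.08 to 0.26, with -0.06 in limma-voom and -0.09 without WT1 with the length trend), Rpia (-1.19 to 0.16, with 0.12 in limma-voom and 0.17 without WT1 with the length trend) and Pfkfb3 (-0.01 to 0.26, with -0.02 in limma-voom and -0.04 without WT1 with the length trend). Hk1 (-0.01 to 0.24, with -0.03 without WT1 with the length trend) and Pdk2 (-0.16 to 0.03) behaved likewise. WT1 was the library whose removal turned the sign in each of these but Pdk2, where it was KO2. With the length trend on all libraries Pfkfb3, Pdhb and Tkt were at -0.06, 0.02 and -0.04. Pair ratios changed sign when a library was left out for Slc2a3 over Slc2a1, Pfkp over Pfkl, Pfkm over Pfkl, Slc16a3 over Slc16a1, G6pdx over Gpi1 and Tkt over Pgd. Their differences ranged from -0.16 to 0.06, -0.37 to 0.13, -0.33 to 0.19, -0.30 to 0.45, -0.10 to 0.12 and -0.29 to 0.11, in that order. The cause was not tested. Depth limited Eno3 and Rpia most, with as few as 33 and 35 counts in a library.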
